A study of Mus musculus with 8 samples.

Results

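The expression of 10 long noncoding RNA genes was examined in mouse ovarian follicles: 7 small nucleolar RNA (snoRNA) host genes, Gas5, Snhg1, Snhg3, Snhg5, Snhg6, Snhg8 and Snhg12, and 3 RNAs that stay in the nucleus, Malat1, Neat1 and Kcnq1ot1. They were chosen by name, with earlier results of these data known, and are 10 of the 55157 genes in the deposited expression table. The libraries came from type 7 to 8 follicles, a morphological stage of growth, taken from ovaries of Kunming mice (an outbred stock) on postnatal day 21. Melatonin libraries (n = 4) were made 24 hours after an injection of pregnant mare serum gonadotropin (PMSG) and melatonin. Control libraries (n = 4) were made at the same hour after PMSG and normal saline, so follicles of both groups had received the gonadotropin, a hormone with follicle-stimulating activity. The labels give no dose of melatonin. They number the replicates but do not say whether they were separate animals or pools, so p-values measure only the spread between these libraries, which may be technical. The comparison asks what melatonin, given with the gonadotropin, does to follicular transcripts.

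SnoRNA host genes are transcribed by RNA polymerase II. Their spliced introns are trimmed into snoRNAs, which guide the chemical modification of ribosomal RNA and other RNAs in the nucleolus, while the spliced exons of many hosts reach the cytoplasm and are degraded there by nonsense-mediated decay. Many hosts begin transcription at a C followed by pyrimidines, the same 5′ terminal oligopyrimidine (TOP) start that marks the messenger RNAs of ribosomal proteins. Malat1 is an abundant RNA of nuclear speckles, the compartments where splicing factors gather. Neat1 is the scaffold on which paraspeckles, another nuclear compartment, assemble. Kcnq1ot1 is an imprinted transcript of the paternal chromosome that runs antisense through Kcnq1 and keeps neighbouring genes of that chromosome silent.

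The starts of the host genes are shown first because the TOP start is the feature that links them to the translation machinery. RefSeq windows on GRCm38.p6 (mm10) were held for 8 of the 10 genes, and none for Neat1 or Snhg6. Each line gives 40 bases before the annotated start and 20 bases from it on, 5′ to 3′ on the strand of the gene. Capitals mark TATA where it begins 20 to 40 bases before the start, and a C with at least 4 pyrimidines after it where that run begins within 5 bases of the start.
Gas5 (chr1:161035126-161035185, plus strand, the second of 2 annotated starts): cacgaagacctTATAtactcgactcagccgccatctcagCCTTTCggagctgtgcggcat
Snhg8 (chr3:123508317-123508376, minus strand): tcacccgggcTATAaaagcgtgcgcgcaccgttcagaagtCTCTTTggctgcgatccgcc
Snhg12 (chr4:132308638-132308697, plus strand): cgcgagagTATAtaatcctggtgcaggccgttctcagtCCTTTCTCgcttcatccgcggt
Snhg5 (chr9:88522878-88522937, minus strand): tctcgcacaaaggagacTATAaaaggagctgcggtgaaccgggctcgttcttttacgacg
Snhg1 (chr19:8723447-8723506, plus strand): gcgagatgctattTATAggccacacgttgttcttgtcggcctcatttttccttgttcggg
Snhg3 (chr4:132353667-132353726, minus strand): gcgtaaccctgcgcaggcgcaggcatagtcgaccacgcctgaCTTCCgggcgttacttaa
Malat1 (chr19:5802653-5802712, minus strand): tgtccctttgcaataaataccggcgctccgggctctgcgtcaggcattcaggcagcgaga

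The pyrimidine run was present at a start of Gas5, Snhg3, Snhg8 and Snhg12, in 4 of the 9 windows of these genes (44.4%), against 18.3% of all 32851 RefSeq windows. TATA was present in the windows of Gas5, Snhg1, Snhg5, Snhg8 and Snhg12, in 5 of 9 windows (55.6%), against 5.81% of all windows. Gas5, Snhg8 and Snhg12 held both, which 1.08% of all windows did. Of 44 windows of ribosomal protein genes and other TOP messenger RNAs, 19 held the run (43.2%) and 3 held TATA (6.82%). Of 13 windows of lncRNA snoRNA hosts outside the 10, 4 held the run (30.8%) and 1 held TATA (7.69%). The windows of Malat1 and Kcnq1ot1 held neither, which says only that these letters are not in those windows, as for the run in Snhg1 and Snhg5. Both motifs were searched on the strand of the gene, the TATA search used these letters alone, and the window sizes were set after these sequences had been seen. A match describes the letters at an annotated start and is not evidence of use of that start in follicles.

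Depth and composition of the libraries bear on every value that follows. Values are deposited FPKM, in which a gene's fragments are divided by its exonic length and by the library total. Whole numbers of fragments could be recovered from them with exon lengths of the GENCODE M21 annotation, and came out whole for all 10 genes in all 8 libraries. This gave 18553187 to 23649205 assigned fragments in melatonin libraries and 17451111 to 22034312 in control libraries. The FPKM of all genes summed to 278096 to 284603 in melatonin and 287731 to 302290 in control libraries, with no overlap. The summed level of 10 granulosa cell markers was 6650 to 7710 FPKM in melatonin libraries and 7910 to 10500 FPKM in control libraries, with no overlap, and 8 of the 10 were lower on average in melatonin follicles. The 12 oocyte markers summed to 356 to 461 FPKM in melatonin and 372 to 578 FPKM in control libraries, so the labelled follicle was present in both. The other cell types that a follicle preparation can hold were also detected, and none of their markers was at 0 throughout. Theca markers summed to 604 to 1170 FPKM in melatonin and 969 to 1320 FPKM in control libraries, stroma and smooth muscle markers to 61.7 to 105 and 75.6 to 145 FPKM, and endothelial markers to 8.02 to 11.6 and 9.72 to 15.4 FPKM, in the same order. Leukocyte markers summed to 23.6 to 42.6 FPKM in melatonin and 27.1 to 127 FPKM in control libraries, and erythroid markers to 125 to 479 and 66.5 to 1540 FPKM. Surface epithelium markers, at 39.3 to 44.4 FPKM in melatonin and 47.2 to 70.1 FPKM in control libraries, did not overlap between the groups. Most tested markers of each list were lower on average in melatonin libraries: 11 of 12 for oocytes, 5 of 6 for theca, 7 of 8 for stroma and smooth muscle, 5 of 5 for endothelium, 6 of 6 for leukocytes, 5 of 5 for surface epithelium and 4 of 5 for erythroid cells. The part of these differences in the results below was not tested, and in such bulk samples fewer cells of a type and less RNA per cell cannot be told apart.

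Fold changes were tested with limma on log2(FPKM + 1) over the 14738 genes that averaged 1 FPKM or more, and are melatonin minus control. With Benjamini-Hochberg adjustment, 0 of these genes (0%) passed an adjusted p of 0.05, and the smallest adjusted p was 0.12. At an unadjusted p under 0.05, limma gave 1385 genes higher in melatonin (9.4%) and 1436 lower (9.74%). limma-voom on recovered fragments also called 0 genes, with 2738 of 13760 (19.9%) at an unadjusted p under 0.05. Of the 10 genes described here, 8 entered the test, Kcnq1ot1 and Snhg3 being below the filter, and 0 of the 8 were called. Neat1 alone had an unadjusted p under 0.05. Positive fold changes were found for 2 of the 8, Malat1 and Neat1, against 47.5% of all tested genes, and the 6 tested snoRNA hosts were negative. The median log2 fold change was -0.075 over the 8 genes, -0.01 over all tested genes and -0.028 over tested genes averaging 5 FPKM or more. All 8 averaged more than 5 FPKM.

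The 10 genes differed widely in level. Malat1 ranked 40th of 14738 tested genes by mean FPKM and was the most abundant of 967 tested lncRNA genes. Gas5 followed at rank 953, and was 12th among the lncRNAs. Snhg8 was at rank 1742, Snhg5 at 2496, Snhg6 at 2503 and Snhg1 at 2574. Neat1 and Snhg12 were lower, at ranks 4788 and 5271. Neighbours in this order were separate over the 8 libraries for Malat1 above Gas5, Gas5 above Snhg8, Snhg1 above Neat1 and Snhg12 above Kcnq1ot1. The lowest Gas5 level, 35.3 FPKM, was only just above the highest Snhg8 level, 34.5 FPKM. The ranges of the other neighbours overlapped, and Snhg5 exceeded Snhg6 in 5 of 8 libraries and Snhg6 exceeded Snhg1 in 4 of 8. Together the 10 genes held 0.377 to 0.463% of assigned fragments in melatonin and 0.322 to 0.448% in control libraries, and Malat1 alone made up 79.5 to 83.7% of these fragments in melatonin and 81.4 to 83.7% in control libraries.

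**Figure D1:**
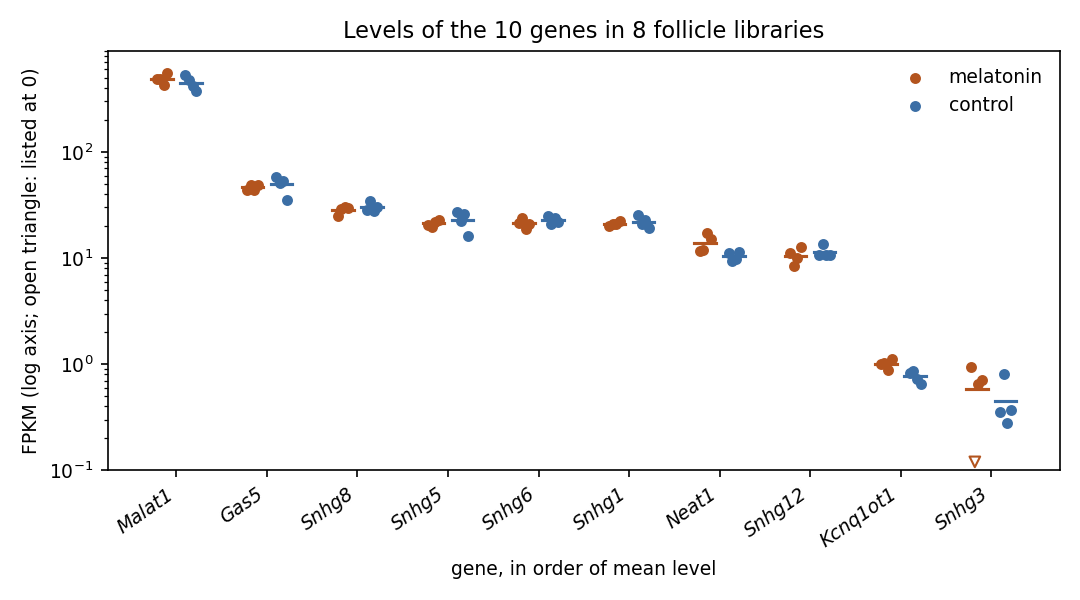
FPKM on a log axis for the 10 genes in order of mean level, with a point for each melatonin library (orange) and control library (blue) and a bar for the mean of 4. Malat1 sits near 490.4 FPKM in melatonin and 450.9 FPKM in control follicles, Kcnq1ot1 and Snhg3 sit near or below 1 FPKM, and the open triangle marks the melatonin library in which Snhg3 was listed at 0.

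Malat1, the speckle RNA, had 492, 491, 429 and 550 FPKM in melatonin libraries 1 to 4, against 537, 474, 417 and 376 FPKM in control libraries 1 to 4. The groups overlapped, with control library 1 above 3 of the 4 melatonin libraries. Means were 490.4 ± 49.1 FPKM in melatonin and 450.9 ± 70.3 FPKM in control follicles (SD, n = 4 each). The log2 fold change was 0.13 ± 0.12 (SE), with an adjusted p of 0.589 by limma. It was 0.05 without control library 4 and 0.22 without control library 1, and also 0.22 after quantile scaling. Between 55617 and 81720 fragments lay behind the melatonin values and 57769 to 75063 behind the control values. Counting error alone would give a coefficient of variation of 0.373% in melatonin and 0.398% in control libraries, whereas the observed ones were 10% and 15.6%, so the spread between libraries was far larger than counting error.

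Neat1, the paraspeckle scaffold, had 11.7, 12, 17.1 and 15.1 FPKM in melatonin libraries, against 11.1, 9.35, 9.91 and 11.4 FPKM in control libraries. All 4 melatonin libraries were above all 4 control libraries, with melatonin library 1 just above control library 4. Such complete separation upward was found for 853 of all tested genes (5.79%). Means were 13.97 ± 2.6 FPKM in melatonin and 10.45 ± 0.98 FPKM in control follicles (SD, n = 4 each), a ratio of 1.34. The log2 fold change was 0.37 ± 0.12 (SE), with an adjusted p of 0.174 by limma, so the difference did not pass the threshold. With limma-voom on 3390 to 6691 recovered fragments per library, the log2 fold change was 0.41 and the adjusted p 0.139. Neat1 was 2.37 to 3.98% of the Malat1 FPKM in melatonin and 1.97 to 3.04% in control libraries, with overlapping ranges. Neat1 values were divided by 20771 merged exonic bases, while its annotated transcripts have a median length of 2017 bases. For Malat1 these lengths are 6983 and 606 bases. This share and the ranks of both genes depend on the length used.

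A trend with gene length and base composition ran alongside. Over 14392 genes, the Spearman correlation between exon length and how far a library lay from the mean of all 8 was 0.024 to 0.115 in melatonin and -0.107 to -0.048 in control libraries. With GC content it was -0.182 to -0.121 in melatonin and -0.024 to 0.261 in control libraries. Neat1 is annotated as 20771 exonic bases (chr19:5824708-5845478, minus strand), and 99.5% of tested genes are shorter. After removal of the length and GC trends its log2 fold change was 0.29 with an adjusted p of 0.281 by limma, and that of Malat1 was 0.06. The short and the long Neat1 isoforms share their first bases, and gene-level values cannot separate them.

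**Figure D2:**
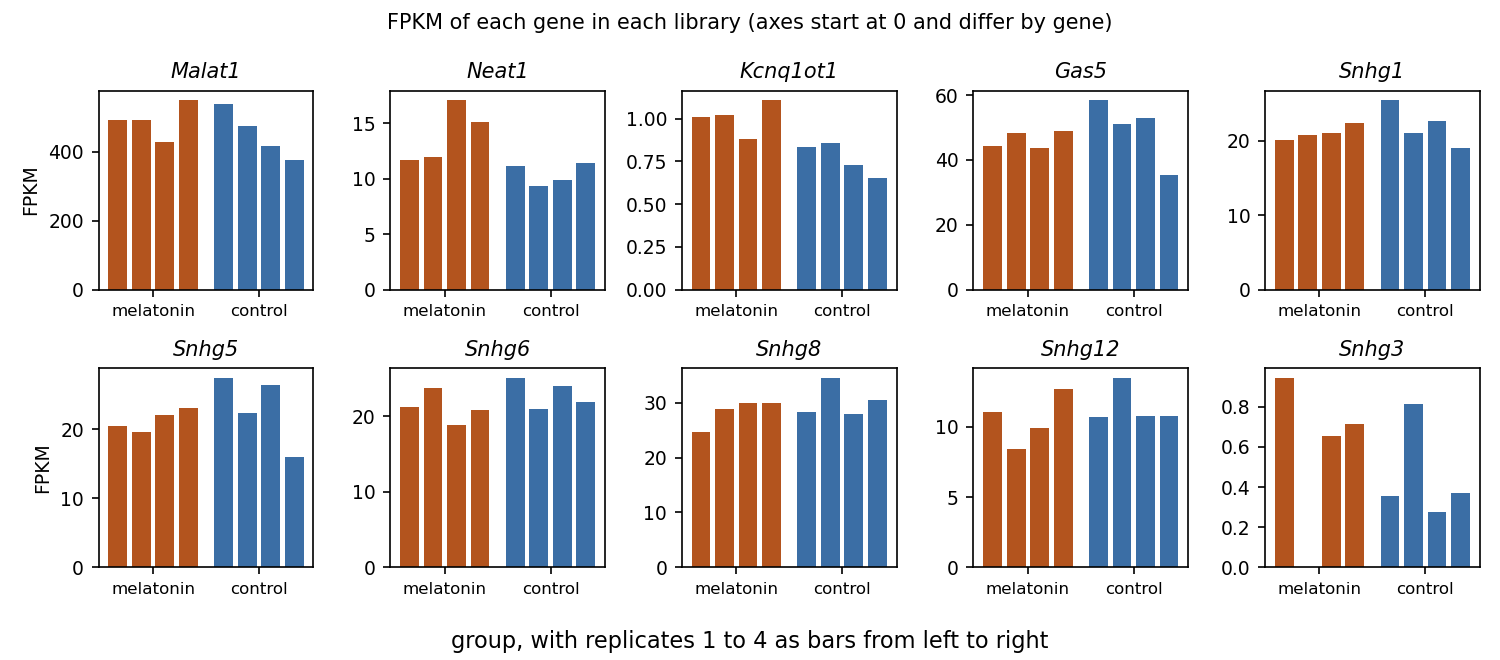
FPKM of each of the 10 genes, with a panel for each and its own axis from 0; every bar is a library, melatonin libraries 1 to 4 (orange) left of control libraries 1 to 4 (blue). All melatonin bars of Neat1 are at 11.7 FPKM or above and all control bars at 11.4 FPKM or below, those of Kcnq1ot1 separate too, and the groups overlap for the other 8 genes.

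Kcnq1ot1, the imprinted antisense transcript, had 1.01, 1.02, 0.88 and 1.11 FPKM in melatonin libraries, against 0.833, 0.859, 0.73 and 0.655 FPKM in control libraries. The groups did not overlap, as melatonin library 3 was just above control library 2. Its low FPKM stands for many fragments, because the value is divided by 93092 annotated bases (chr7:143203458-143296549, minus strand): 2228, 2053, 1520 and 2204 fragments in melatonin and 1553, 1396, 1498 and 1343 in control libraries. It fell under the 1 FPKM filter and so was not in the main test, nor in the fit with length and GC trends removed. Its exonic length exceeds that of 100% of tested genes, and its GC content is 40.3% against their median of 49.4%. Relative to control libraries, the trends in melatonin libraries ran toward higher values for long genes and for genes of low GC content. Their part in the Kcnq1ot1 values was not tested. In limma-voom on the 17461 genes averaging 10 or more recovered fragments, an alternative added after the data were seen, the log2 fold change was 0.40 ± 0.10 (SE) and the adjusted p was 0.13. That fit called 0 genes, had 3124 (17.9%) at an unadjusted p under 0.05, and found 943 (5.4%) with all melatonin libraries above all control libraries. With limma and no filter the log2(FPKM + 1) scale gave 0.18 with an adjusted p of 0.529.

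Kcnq1, the potassium channel gene through which Kcnq1ot1 runs on the opposite strand, had 0.868, 0.636, 0.974 and 1.04 FPKM in melatonin libraries, against 1.12, 2.37, 1.66 and 1.14 FPKM in control libraries. All melatonin libraries were below all control libraries, and the log2 fold change was -0.43 ± 0.17 (SE), with an adjusted p of 0.22 by limma. It averaged 0.881 FPKM in melatonin and 1.57 FPKM in control follicles and so passed the 1 FPKM filter only through the control libraries, which makes this fold change a description. Of 12 genes of the imprinted domain, 6 were tested and 0 were called, with 5 negative (Kcnq1 among them), 1 positive and a median log2 fold change of -0.21. As Kcnq1 is part of both, the count of negative genes and the median share its limit. Nap1l4, a histone chaperone gene at the edge of the domain, averaged 53.4 ± 2.63 FPKM in melatonin and 58.8 ± 1.42 FPKM in control follicles (SD, n = 4 each), with an adjusted p of 0.19. The growth inhibitor Cdkn1c, which the imprinted transcript silences on the paternal chromosome, averaged 2.27 FPKM in melatonin and 2.86 FPKM in control follicles, with overlapping libraries. Use of strand in the authors' counting is not known here. Without it, reads of antisense partners cannot be told apart where their exons share bases. Of Kcnq1ot1, 1119 bases are shared with exons of other genes, 121 of them with Kcnq1. The whole of Kcnq1ot1 also lies inside the span of Kcnq1 (chr7:143106362-143427042, plus strand). Without strand, reads of unspliced Kcnq1 could therefore be counted as Kcnq1ot1 over its full length.

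Around Malat1 and Neat1 on chromosome 19, 6 of 9 neighbouring genes were tested and 0 were called, with 3 positive and 3 negative and a median of -0.01. Ltbp3, which encodes a protein that binds latent TGF-beta, averaged 93.9 ± 7.14 FPKM in melatonin and 82.4 ± 3.39 FPKM in control follicles (SD, n = 4 each), with overlapping libraries and an adjusted p of 0.187 by limma. Sssca1 averaged 5.77 FPKM in melatonin and 6.33 FPKM in control follicles, with an adjusted p of 0.397.

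Among the snoRNA hosts, Gas5, which carries 10 annotated snoRNA genes, had 44.2, 48.4, 43.8 and 49.0 FPKM in melatonin libraries, against 58.5, 51.1, 52.9 and 35.3 FPKM in control libraries. Control libraries 1, 2 and 3 were above every melatonin library and control library 4 was below every one. Means were 46.32 ± 2.72 FPKM in melatonin and 49.45 ± 9.93 FPKM in control follicles (SD, n = 4 each), with a log2 fold change of -0.07 ± 0.14 (SE) and an adjusted p of 0.811 by limma. Without control library 4 the log2 fold change was -0.22, and without control library 1 it was 0.02.

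Snhg5 is the host of the Snord50 genes. It had 20.5, 19.6, 22.0 and 23.1 FPKM in melatonin libraries, against 27.4, 22.3, 26.3 and 16 FPKM in control libraries, where libraries 1 and 3 were highest and library 4 lowest of all 8. The log2 fold change was -0.08 ± 0.15 (SE) and the adjusted p 0.801 by limma. It was -0.24 without control library 4 and 0.01 without control library 1.

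Snhg1, which holds 8 snoRNA genes, had 20.1, 20.8, 21.0 and 22.4 FPKM in melatonin libraries, against 25.5, 21.1, 22.7 and 19.1 FPKM in control libraries. Control library 1 was highest and control library 4 lowest, with the melatonin libraries between them, and the adjusted p was 0.714 by limma for a log2 fold change of -0.06. For these 3 hosts, singled out after their values were seen, the coefficient of variation was smaller in melatonin libraries: 5.86% against 20.1% in control libraries for Gas5, 4.55% against 12.1% for Snhg1 and 7.36% against 22.6% for Snhg5. Counting error alone would give 1.65% in both groups for Gas5, 2.75% in melatonin and 2.76% in control libraries for Snhg1, and 3.59% and 3.58% for Snhg5. The order was the other way for Snhg12, at 17% in melatonin against 11.8% in control libraries, and for Snhg6, at 9.82% against 8.26%, while Snhg8 had 8.71% against 9.81%. The difference in spread was not tested, and in Gas5, Snhg5 and Snhg1 control libraries 1 and 4 were the highest and lowest of the group.

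In the other tested hosts control library 4 was not the lowest. Snhg8, at 24.7, 28.9, 30 and 29.9 FPKM in melatonin and 28.3, 34.5, 28.0 and 30.4 FPKM in control libraries, overlapped, with melatonin library 1 lowest and control library 2 highest, a log2 fold change of -0.09 ± 0.08 (SE) and an adjusted p of 0.582 by limma. Snhg6, the host of Snord87, had 21.3, 23.8, 18.8 and 20.9 FPKM in melatonin libraries, against 25.1, 21.0, 24.0 and 21.9 FPKM in control libraries. Control library 1 was highest and melatonin library 3 lowest, and the log2 fold change was -0.12 ± 0.08 (SE), with an adjusted p of 0.47. Snhg12 had 11.1, 8.45, 9.96 and 12.7 FPKM in melatonin libraries, against 10.7, 13.5, 10.8 and 10.8 FPKM in control libraries, of which library 2 was highest and the other 3 were close together. Its adjusted p was 0.625 by limma for a log2 fold change of -0.11.

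Snhg3 had low values, at 0.943, 0, 0.656 and 0.715 FPKM in melatonin libraries, against 0.355, 0.814, 0.276 and 0.368 FPKM in control libraries. These values stand on 22, 0, 12 and 15 fragments in melatonin and 7, 14, 6 and 8 fragments in control libraries. A count of 0 in melatonin library 2 allows up to 3 fragments, or 0.141 FPKM, for counting error only. Melatonin libraries 1, 3 and 4 were above control libraries 1, 3 and 4, and melatonin library 2 was below all. In limma-voom with the lower filter, the log2 fold change was -0.4 ± 1.02 (SE) with an adjusted p of 0.867, and on log2(FPKM + 1) with no filter it was 0.09, so its sign depended on the scale. Of its 986 merged exonic bases, 851 are shared with other genes and 135 are not. The other genes include that of the snoRNA Snora73a, Gm17300 on the opposite strand and Rcc1, which encodes a chromatin protein that acts on the GTPase Ran. How fragments on shared bases were counted is not known, and all 170 snoRNA genes wholly covered by exons of another gene were at 0. The low FPKM of Snhg3, and its last place in the order of level, are therefore not read here as a low level of the RNA. Rcc1 itself had 9.49, 10.6, 12.1 and 9.96 FPKM in melatonin libraries, against 11.9, 13.9, 13.6 and 12.1 FPKM in control libraries, with an adjusted p of 0.161 by limma.

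**Figure D3:**
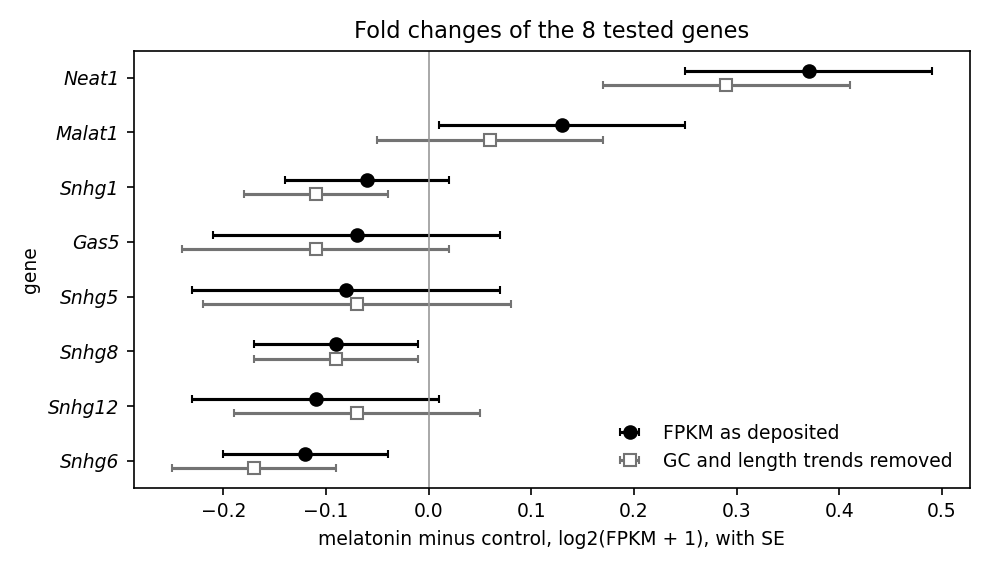
Log2 fold change of the 8 tested genes, melatonin minus control on log2(FPKM + 1), with the standard error from limma; filled circles are FPKM as deposited and open squares have the GC and length trends removed. Neat1 lies at 0.37 as deposited and at 0.29 after removal, Malat1 at 0.13 and 0.06, and the 6 snoRNA hosts lie between -0.12 and -0.06 as deposited.

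How the hosts were annotated shapes what their FPKM mean. The length that divides each value was the union of exons over all annotated transcripts, retained introns included. Gas5 (chr1:161034422-161038539, plus strand) has 25 annotated transcripts with a median length of 629 bases, yet its value was divided by 3760 bases in 3 blocks. Snhg1 (chr19:8723475-8726443, plus strand) has 18 transcripts with a median of 602 bases, and its 2969 merged bases form 1 block with no intron left. For Snhg12 (chr4:132308623-132311024, plus strand) the median transcript was 915 bases and the union 2402. Snhg5 (chr9:88521050-88522929, minus strand) had a median of 832 and a union of 1730 bases, Snhg6 (chr1:9941959-9944118, minus strand) 559 and 1146, and Snhg8 (chr3:123507552-123508404, minus strand) 528 and 853. Levels between these genes, and their ranks, are per base of the union and would differ per base of spliced transcript. Comparisons of 1 gene between groups share the same length.

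**Figure D4:**
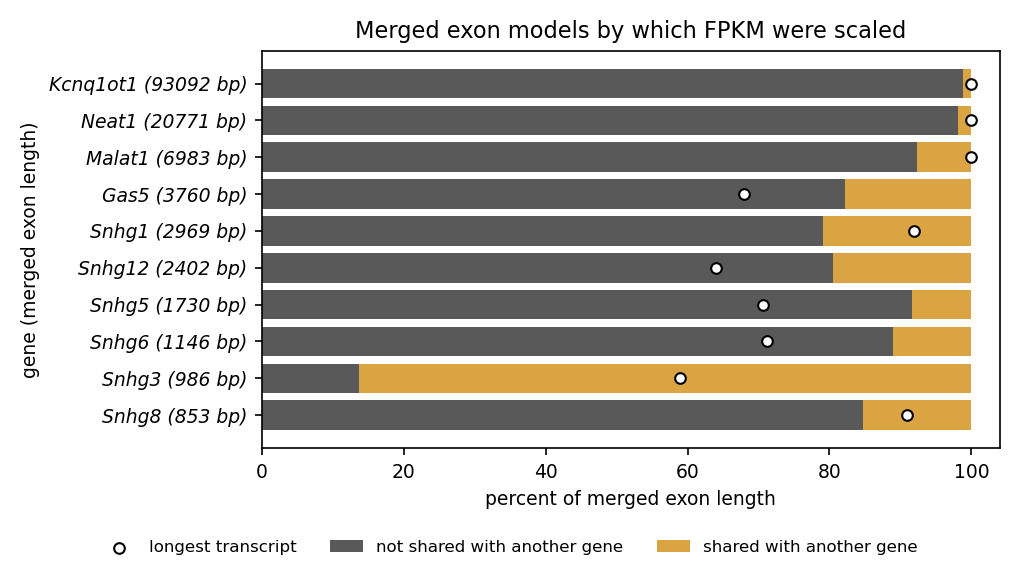
Share of the merged exon length of each gene, in percent, that is shared with exons of another gene (yellow) or not (grey), with an open circle at the length of the longest annotated transcript; merged lengths in bases stand beside the names. Of the 986 bases of Snhg3, 851 are shared, and the longest Gas5 transcript, at 2556 bases, covers less than the 3760 merged bases.

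The snoRNAs themselves were nearly invisible in these values. The annotation places 29 snoRNA genes inside the hosts: 10 in Gas5, 8 in Snhg1, 5 in Snhg12, 2 each in Snhg3 and Snhg5, and 1 each in Snhg6 and Snhg8. These counts are of annotation entries. Snord80 in Gas5 and Snora16a in Snhg12 each have more than 1 entry over nearly the same bases, so distinct snoRNAs are fewer. Of the 29, 28 lie wholly within merged exons of another gene, and these same 28 were listed at 0 in all 8 libraries. Over the whole annotation, all 170 snoRNA genes wholly covered by exons of another gene were at 0 in every library (100%), as were 36 of 60 partly covered ones (60%) and 895 of 1277 with no exon over them (70.1%). Of the uncovered ones, 382 were above 0 in some library and 161 averaged at least 1 FPKM. A 0 for a covered snoRNA is therefore not read here as an absent RNA.

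The sequences of 3 box C/D snoRNAs, which guide 2′-O-methylation of RNA, show what the hosts carry. Capitals mark the C box TGATGA and the D box CTGA, searched on the strand of the snoRNA in the first 20 and last 15 bases, in mm10 and GENCODE M21. Both boxes in those places were found in 305 of 1507 annotated snoRNA genes (20.2%).
Snord87 (in Snhg6, chr1:9942463-9942549, minus strand): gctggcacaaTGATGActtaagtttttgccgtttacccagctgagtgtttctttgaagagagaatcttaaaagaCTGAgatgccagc
Snord47 (in Gas5, chr1:161038082-161038158, plus strand): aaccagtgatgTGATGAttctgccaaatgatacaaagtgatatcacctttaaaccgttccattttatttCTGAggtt
Snord50a (in Snhg5, chr9:88521529-88521600, minus strand): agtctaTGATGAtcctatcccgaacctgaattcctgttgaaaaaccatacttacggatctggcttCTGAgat

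Snord87 was the 1 snoRNA gene of the 29 with values, and the 1 that lies in an intron of its host with no exon over it. It had 3.89, 6.41, 0.62 and 4.86 FPKM in melatonin libraries, against 5.17, 1.32, 5.22 and 3.65 FPKM in control libraries. Melatonin library 3 and control library 2 were low, and the groups overlapped. The values stand on 8, 12, 1 and 9 fragments in melatonin and 9, 2, 10 and 7 in control libraries, and no difference was tested. A fragment inside an intron can come from the snoRNA or from unspliced Snhg6, and FPKM do not separate these.

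Genes that work with the hosts were compared by lists, each set beside all tested genes, of which 47.5% were positive and the median was -0.01. For tested genes averaging 5 FPKM or more the median was -0.028. None of these lists held a gene that limma called. All lists were chosen with earlier results of these data known, so their shares only describe. The trends with gene length and GC content also bear on these lists, which were not recounted with the trends removed. Of 9 tested lncRNA snoRNA hosts outside the 10, 6 were positive, with a median of 0.06. Snhg17 averaged 18.2 ± 0.791 FPKM in melatonin and 15 ± 2.28 FPKM in control follicles (SD, n = 4 each), with all melatonin libraries above and an adjusted p of 0.206, and Snhg4 averaged 1.43 FPKM in melatonin and 1.70 FPKM in control follicles. Protein-coding hosts had 24 of 32 negative and a median of -0.09. Among them Wdr43, a nucleolar factor of ribosome assembly, averaged 24.1 ± 0.768 FPKM in melatonin and 27.2 ± 1.16 FPKM in control follicles (adjusted p = 0.148), and the ribosomal protein gene Rpl13a averaged 17.8 ± 0.254 FPKM in melatonin and 21.1 ± 2.02 FPKM in control follicles (adjusted p = 0.152).

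Genes for proteins that bind and assemble snoRNAs were mostly lower in mean level in melatonin follicles. Of 18 genes for snoRNP core and assembly proteins, 17 were negative with a median log2 fold change of -0.15, 10 had an unadjusted p under 0.05 on the low side, against 9.74% of all tested genes, and 6 had all melatonin libraries below all control libraries, a layout found in 5.94% of tested genes. Fbl, the methyltransferase of box C/D snoRNPs, averaged 31.8 ± 1.19 FPKM in melatonin and 37.5 ± 1.03 FPKM in control follicles (SD, n = 4 each), with a log2 fold change of -0.23 ± 0.04 (SE) and an adjusted p of 0.12 by limma. Nhp2, a core protein of box H/ACA snoRNPs, averaged 54.2 ± 3.84 FPKM in melatonin and 66.0 ± 2.17 FPKM in control follicles, with a log2 fold change of -0.28 ± 0.06 and an adjusted p of 0.121. The partner of Fbl, Nop58, overlapped between groups at means of 12.4 FPKM in melatonin and 13.6 FPKM in control follicles. The members of such a list are not independent of each other, and most markers of all 8 cell type lists above, granulosa cells included, were also lower on average in melatonin libraries; the part of that in these values was not tested.

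Ribosomal protein genes and other TOP messenger RNAs had 51 of 56 negative and a median of -0.08. The median was -0.086 for the 6 tested snoRNA hosts described here and 0.06 for the 9 tested lncRNA hosts outside the 10. Likeness between these medians was not tested. Of the 56, 4 had an unadjusted p under 0.05 on the low side, against 9.74% of all tested genes, and 5 had all melatonin libraries below all control libraries, against 5.94%. Rpl13 averaged 299 ± 3.44 FPKM in melatonin and 331 ± 5.59 FPKM in control follicles (SD, n = 4 each), with an adjusted p of 0.169 by limma. Several ribosomal protein genes have near-identical pseudogenes that can take their reads, and Rps2 ran from 7.45 to 236 FPKM within the melatonin libraries. The nonsense-mediated decay factors had 10 of 14 positive and a median of 0.04. The helicase cofactors Upf3b and Upf2 had all melatonin libraries above all control libraries, with adjusted p of 0.12 and 0.15 by limma. Such separation upward was found in 5.79% of all tested genes. Upf3b averaged 21.3 ± 0.994 FPKM in melatonin and 16.8 ± 1.33 FPKM in control follicles. Upf2 averaged 23.3 ± 3.06 and 17.9 ± 2.05 FPKM in the same order. At an unadjusted p under 0.05 by limma, the decay factors had 2 genes on the high side and 1 on the low side. The latter was Smg5, at means of 19.3 FPKM in melatonin and 21.1 FPKM in control follicles.

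On the nuclear side, 12 of 16 speckle scaffold and splicing genes were positive with a median of 0.08, 7 had an unadjusted p under 0.05 on the high side (9.4% of all tested genes did) and 6 had all melatonin libraries above all control libraries (5.79% of all tested genes did). Srsf11, a splicing regulator, averaged 49.5 ± 1.58 FPKM in melatonin and 40.2 ± 3.08 FPKM in control follicles (SD, n = 4 each), with a log2 fold change of 0.30 ± 0.06 (SE) and an adjusted p of 0.12 by limma. Luc7l3, a component of the U1 splicing machinery, averaged 59.0 ± 3.42 FPKM in melatonin and 45.0 ± 7.44 FPKM in control follicles, with an adjusted p of 0.148. Paraspeckle proteins had 12 of 19 positive and a median of 0.06. The core paraspeckle protein Sfpq averaged 123 FPKM in melatonin and 115 FPKM in control follicles (adjusted p = 0.29), while its partner Nono averaged 95.1 and 100 FPKM in the same order (adjusted p = 0.386). Rbmx averaged 43.5 ± 1.45 FPKM in melatonin and 37.5 ± 2.11 FPKM in control follicles (adjusted p = 0.138), and the chromatin remodeller Smarca4 averaged 32.0 ± 2.18 and 35.7 ± 1.66 FPKM in the same order (adjusted p = 0.221).

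Nuclear or chromatin-bound lncRNAs, a list that takes in Malat1 and Neat1, had 11 of 13 tested genes positive and a median of 0.13. Firre, an X-linked RNA that shapes nuclear organisation, averaged 34.7 ± 1.59 FPKM in melatonin and 29.8 ± 2.21 FPKM in control follicles (SD, n = 4 each), with an adjusted p of 0.148 by limma. Jpx, an activator of Xist, averaged 2.68 ± 0.0392 FPKM in melatonin and 2.07 ± 0.237 FPKM in control follicles, with an adjusted p of 0.15. With Neat1 these are the 3 genes of that list whose groups did not overlap among the 13 tested, all with melatonin above control, against 5.79% of all tested genes. After removal of the length and GC trends, log2 fold changes of genes named from these lists moved by differing amounts. That of Luc7l3 went from 0.39 to 0.31, that of Nhp2 from -0.28 to -0.23 and that of Rpl13 from -0.14 to -0.09. Not all shrank, as Wdr43 went from -0.17 to -0.2 and Snhg17 from 0.28 to 0.29.

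**Figure D5:**
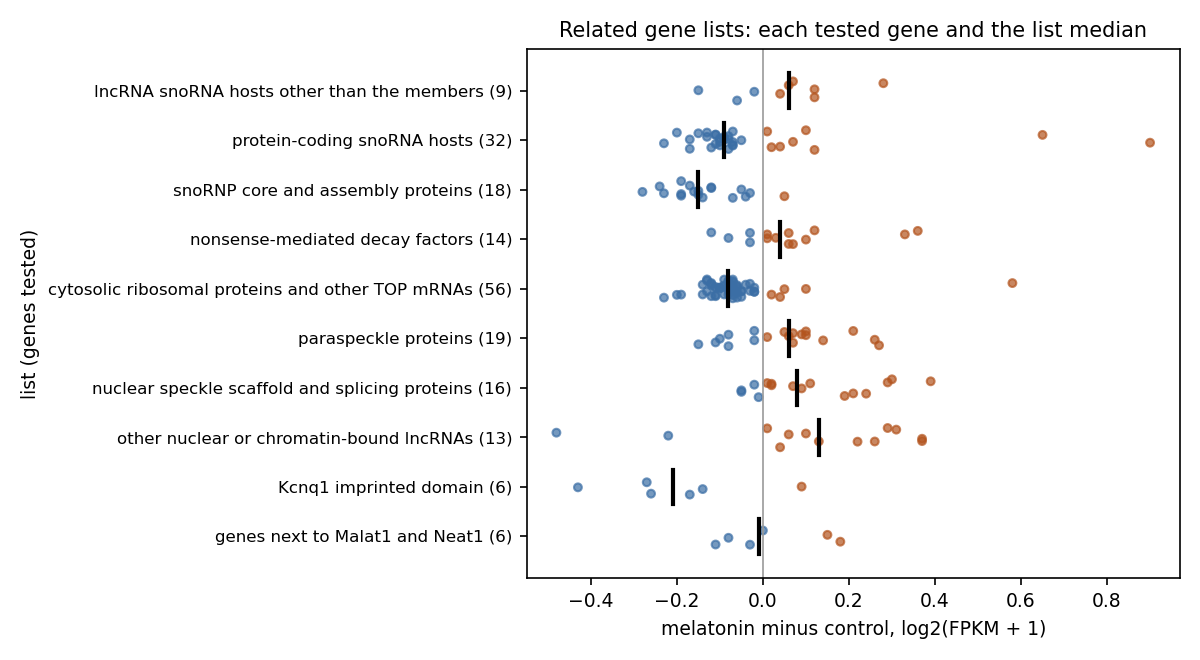
Log2 fold changes, melatonin minus control, of the tested genes of each list, with a point per gene (orange positive, blue negative) and a black bar at the median. The snoRNP proteins sit almost wholly below 0 with a median of -0.15 and the nuclear lncRNAs mostly above it with a median of 0.13, and no gene passed an adjusted p of 0.05.

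Partners by position were read beside the hosts. Zbtb37, a zinc finger gene that starts beside Gas5 on the opposite strand and shares no exonic base with it, had 3.50, 3.75, 3.49 and 3.90 FPKM in melatonin libraries, against 3.19, 2.85, 2.94 and 2.78 FPKM in control libraries. All melatonin libraries were above all control libraries, and the log2 fold change was 0.24 ± 0.06 (SE), with an adjusted p of 0.146 by limma. Mcmdc2, which shares 127 bases with Snhg6, was below the filter at 0.135 FPKM in melatonin and 0.118 FPKM in control follicles.

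The genes whose pattern over the 8 libraries was most like that of Malat1 were sought among 8823 tested genes averaging 5 FPKM or more, by the root mean square difference of centred log2(FPKM + 1). Malat1 itself varied by 0.176 on this measure, and Etfrf1 differed from it by 0.0668, Mcm8 by 0.0687 and Myo9a by 0.0705. The mean of the 6 tested hosts varied by 0.105, and Sec11a differed from it by 0.0383, Ccdc47 by 0.0403 and Ints11 by 0.0412. With 8 libraries that share depth and composition, these distances only describe likeness.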

How the data were processed

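RNA from mouse ovarian follicles was sequenced in 4 melatonin and 4 control libraries. Per the labels' protocols, Trizol was used to extract total RNA and a NEBNext Ultra kit to build libraries. Per the submitters' processing notes, the authors used HISAT2 2.0.5 and the mm10 build. How fragments were counted, with which annotation and with or without strand, is not given in the sources used here. Per the file headers, the authors deposited FPKM per gene, and the series table differed from the sample files in 0 cells. FPKM are relative within a library, so total RNA per follicle is not measured.

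GENCODE M21 exon lengths matched 54495 of 55157 identifiers and turned 98.8% of low FPKM values (up to 30 fragments) into whole fragments within 0.05. For 1 kb of exon, 1 fragment equalled 0.0423 to 0.0539 FPKM in melatonin and 0.0454 to 0.0573 FPKM in control libraries. Replicate pairs differed beyond counting noise (chi-square per degree of freedom 10.96 to 16.67 in melatonin, 14.28 to 36.42 in control), so no library was treated as a second copy of another; this does not show that they came from separate animals. Because FPKM are not counts, log2(FPKM + 1) was tested with limma 3.58.1 (R 4.3.3, moderated with an intensity trend), group as the only term, over genes averaging 1 FPKM or more, with Benjamini-Hochberg adjustment and a threshold of 0.05. This scale understates changes of low genes. The test was checked on simulated data.

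The 10 genes and all lists were chosen with earlier results of these data known. Named genes are the 10, the 2 lowest-p tested genes per list, and the 3 genes most like Malat1 and like the mean host; overlapping neighbours and other list members were added after values were seen. Alternatives were quantile and median-ratio scaling, no filter and 5 FPKM, a pseudocount of 0.1, array weights, the replicate number as a block, each library left out, limma-voom on recovered fragments, and removal of GC and length trends by natural splines with 5 degrees of freedom. Python 3.11.15, numpy 2.4.6, pandas 2.3.3, scipy 1.17.1 and matplotlib 3.10.9 were used. Snhg7, Snhg16 and Norad are not analysed here.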

Additional observations from a re-analysis of the deposited data

Results flagged for a closer look

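Snhg12 in control replicate 2, at 13.5 FPKM, stood apart from the other control libraries, which had 10.7, 10.8 and 10.8 FPKM. The melatonin libraries had 11.1, 8.45, 9.96 and 12.7 FPKM. It was the 1 library that lay apart in 20 groups of 4 tested, and chance flags about 1 in 20 groups.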

How the results depend on the processing

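None of the genes of the set that entered a fit was called under any of the 17 alternatives; Kcnq1ot1 and Snhg3 entered only the fit with no filter and the added voom fit, and were called in neither. One gene of the whole table was called with no filter (Mir6947) and 1 without control replicate 1 (C1rb), both named after their values were seen; leaving out single libraries gave 0 to 1 called genes. Of the tested genes of the set, 4 were positive with no filter, which also takes in Kcnq1ot1 and Snhg3, and 2 to 5 with single libraries left out, against 2 as reported; the 5 came without control replicate 1. Their median log2 fold change was -0.13 to 0.009 with single libraries left out, -0.13 without control replicate 4 and 0.009 without control replicate 1. The sign turned for Gas5 under quantile scaling (0.0029), for Ccdc47 under quantile scaling (0.00029), and for Snhg3 with no filter (0.09) against the lower-filter voom fit. With single libraries left out, Gas5 ran from -0.22 to 0.02, Snhg5 from -0.24 to 0.01, Snhg1 from -0.12 to 0.01 and Ccdc47 from -0.09 to 0.02, each turning without control replicate 1; the cause was not tested. Neat1 stayed positive, at 0.28 to 0.45, with adjusted p of 0.139 to 0.332. With the replicate block, 0 genes were called, 2 of the 8 were positive and the median stayed at -0.075. Same-numbered libraries correlated at 0.001, -0.103, 0.151 and 0.038 in their deviations. With 4 libraries per group, this cannot show whether same-numbered libraries shared a batch or were paired, which the labels do not state. Counting error was large for Snhg3, on at most 22 fragments, and for Snord87, on at most 12.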

Other observations

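Further nuclear lncRNAs, chosen after their values were seen, overlapped between the groups. Xist, the RNA of X inactivation, ran from 93.6 to 124 FPKM in melatonin and from 61.3 to 113 FPKM in control libraries. Meg3 and Rian, maternally expressed RNAs of an imprinted cluster, ran from 11.7 to 20.1 and 3.56 to 8.48 FPKM in melatonin libraries, and from 14.5 to 23.5 and 6.25 to 12.4 FPKM in control libraries, in that order of genes.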
